A study of Mus musculus with 22 samples.

Results

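The 10 genes described here encode the peptides with which the hypothalamus governs the pituitary, together with a receptor and a binding protein of one of them: Avp, Oxt, Crh, Crhr1, Crhbp, Gnrh1, Ghrh, Sst, Kiss1 and Tac2. They were taken by symbol from the annotation of the array platform, and each had 1 probe set with a single symbol, so that 10 of 19935 genes tested were members. Gene expression had been measured with Affymetrix gene arrays in the hypothalamus of C57bl6 male mice, 9 to 12 weeks old, that lacked interleukin-6 (IL-6 KO) or were their wild-type (WT) littermates. Interleukin-6 is a cytokine needed for fever, and lipopolysaccharide (LPS), a cell wall component of Escherichia coli, provokes inflammation and fever. The 4 groups were IL-6 KO after LPS (7 arrays), WT after LPS (7 arrays), IL-6 KO after saline (4 arrays) and WT after saline (4 arrays). LPS was given once into the peritoneum at 120 µg/kg, and all mice were killed 3 h after the injection and perfused with saline. The labels name the genotype as IL-6 KO without describing the allele, and they do not state whether arrays and mice correspond 1 to 1, so the spread behind each p-value is that between arrays and may be technical in part. The study's question was which hypothalamic transcripts, by differing between LPS-treated IL-6 KO and WT mice, might explain why mice without the cytokine do not develop fever.

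Each deposited value is a log2 difference from the median of that probe set over the 22 arrays. The levels themselves had been removed, so that no gene's abundance, no order of the 10 genes by abundance and no check of the tissue against the levels of its markers can be given. All values below are such differences, in which 1 unit is a doubling. Differences between groups were tested with limma over all 19935 genes, and a gene was called where its Benjamini-Hochberg adjusted p was under 0.05.

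The magnocellular neurons of the paraventricular and supraoptic nuclei make vasopressin and oxytocin and send them to the posterior pituitary. Smaller neurons release hypophysiotropic peptides into the portal blood: CRH drives ACTH and thereby glucocorticoids, GnRH drives the gonadotropins, and GHRH and somatostatin raise and lower growth hormone. Kisspeptin and neurokinin B, encoded by Kiss1 and Tac2, act upstream of the GnRH neurons. Inflammation is known to activate the CRH and vasopressin neurons of the stress axis.

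The 250 bases before the transcription start are shown for 3 members whose results the text returns to, because Avp and Oxt varied together from array to array and Sst had the widest scatter. The sequences come from RefSeq on GRCm38.p6, in which 8 of the 10 members had an entry. Crh and Gnrh1 had none. Each line runs 5′ to 3′ along the gene's own strand, and capitals mark the match of 1 motif per gene: the E-box CACGTG in Avp, TGACC, the core of nuclear receptor sites, in Oxt (written GGTCA where it lies on the opposite strand), and the cyclic AMP response element TGACGTCA in Sst.
Avp, chr2:130582589-130582838, minus strand: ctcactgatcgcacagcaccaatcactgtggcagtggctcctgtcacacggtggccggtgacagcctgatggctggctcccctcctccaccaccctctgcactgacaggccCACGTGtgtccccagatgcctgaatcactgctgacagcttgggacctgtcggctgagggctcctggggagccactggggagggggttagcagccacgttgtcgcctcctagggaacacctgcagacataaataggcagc
Oxt, chr2:130575919-130576168, plus strand: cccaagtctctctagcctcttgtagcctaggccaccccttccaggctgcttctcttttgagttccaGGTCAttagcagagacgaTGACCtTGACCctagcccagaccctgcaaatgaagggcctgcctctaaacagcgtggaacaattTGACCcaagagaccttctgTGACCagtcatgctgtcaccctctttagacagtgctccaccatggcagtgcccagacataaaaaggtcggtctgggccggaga
Sst, chr16:23890845-23891094, minus strand: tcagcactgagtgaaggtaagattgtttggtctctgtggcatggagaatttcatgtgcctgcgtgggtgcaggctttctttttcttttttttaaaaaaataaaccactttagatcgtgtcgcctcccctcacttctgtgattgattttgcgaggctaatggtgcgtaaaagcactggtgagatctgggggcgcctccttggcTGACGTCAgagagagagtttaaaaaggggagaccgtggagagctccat
Both strands of 32851 promoter windows of the same length were searched for the motifs. The E-box lay at positions -139 to -134 from the start of Avp, and 6.02% of all windows held one. Oxt held 5 matches of TGACC between positions -184 and -79, where 35.2% of windows held at least 1 and 14 windows, or 0.0426%, held 5 or more. The response element of Sst lay at positions -48 to -41 and was found in 1.55% of windows. Its letters include the shorter TGACG on each strand, which 17.8% of windows held. The STAT motif TTCNNNGAA, of the kind bound by factors downstream of the IL-6 receptor, was in 7.02% of windows and in none of those of the 8 members. The TATA box letters TATAAA were in 12.4% of windows and, among members, in the second of the 2 Ghrh entries. Avp and Oxt lie beside each other on chromosome 2 with 0 listed genes between them, and they are transcribed towards each other. A match of letters describes the sequence and shows no binding.

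None of the 10 genes was called in any comparison of treatment or genotype. After LPS against saline in IL-6 KO mice 0 of 10 members were called, against 1.34% of all genes (267 of 19935), and in WT mice 0 of 10 were called, against 1.8% (359 genes). Between IL-6 KO and WT mice 0 of 10 were called after LPS, against 0.0401% of all genes (8 genes), and 0 of 10 after saline, against 0.00502% (1 gene). The LPS effect averaged over genotypes gave 0 of 10 members and 2.76% of all genes (550 genes), and the genotype effect averaged over treatments gave 0 of 10 and 0.0251% (5 genes). The interaction, which asks whether the LPS effect differs between genotypes, gave 0 of 10 members and 0% of all genes. With shares this low over all genes, a count of 0 does not set the members apart. An unadjusted p under 0.05 was reached by 1 of the 70 member results, which pool the 7 contrasts. Over all genes the share depended on the contrast. It ran from 1.64% in the interaction (327 of 19935 genes) to 16.3% in the genotype effect averaged over treatments.

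The intervals of the main limma fit say how large a change the arrays leave room for. They do so only as far as the probe sets were bright enough to register a change. Some estimates from alternative fits, given at the end, lay outside them. Over the 40 differences of the members in the 4 comparisons between groups, standard errors (SE) ran from 0.048 to 0.132 and the 95% intervals, not adjusted for the number of genes, stayed between -0.42 and 0.40. The largest fold inside any of these intervals was 1.32 upwards and 1.34 downwards. In all 6 comparisons of groups or pooled groups, the values of every member overlapped between the sides compared. The share of all genes that overlap was not computed, so this does not set the members apart. Since whole tissue was measured, fewer cells of a kind and less RNA per cell cannot be told apart in any of these values.

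**Figure D1:**
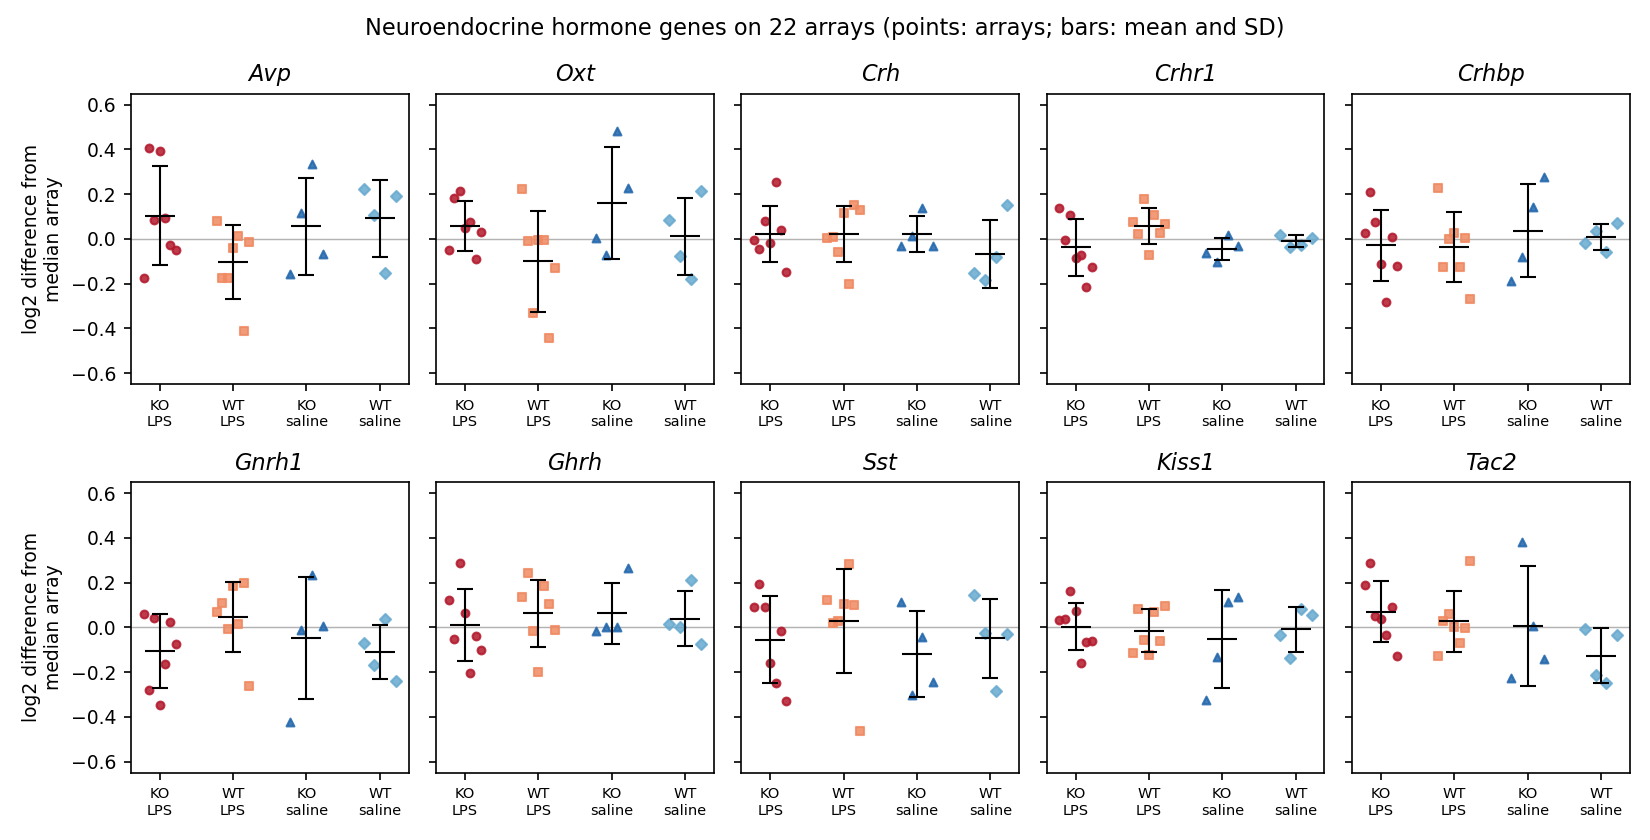
Value of each of the 10 genes on every array, as a log2 difference from the gene's median array, in the 4 groups (7 IL-6 KO LPS, 7 WT LPS, 4 IL-6 KO saline and 4 WT saline arrays); each point is 1 array, and bars give the mean and SD. In every panel the 4 groups overlap, and the scatter within a group is wider for Avp, Oxt and Sst than for Crhr1.

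The arrays did record a strong response to LPS in other genes. Cxcl10, an interferon-induced chemokine, was higher after LPS by 4.41 in IL-6 KO and by 4.88 in WT mice, and Lcn2, an acute-phase protein, by 2.31 and 3.39 in the same genotypes (limma, all 4 called). A further quantile normalization, of values already normalized and centred, shrank large differences. Cxcl10 then differed by 2.32 in IL-6 KO and 2.67 in WT mice. Lcn2 then differed by 1.07 in IL-6 KO mice, where its call was lost (limma, adjusted p = 0.0809), and by 2.34 in WT mice. Lcn2 was also lower in IL-6 KO than in WT mice after LPS, by -1.04 (limma, adjusted p = 0.0164), a call lost in 9 of 34 alternative analyses. With array block as a term the difference was -0.88 (limma, adjusted p = 0.0722), and the call was also lost in fits without WT LPS replicate 3, WT LPS replicate 4 or IL-6 KO LPS replicate 6 (adjusted p 0.0570, 0.0642 and 0.0587). Other lost calls lay farther from the threshold, and over the 34 alternatives the difference ran from -1.23 to -0.74. The targeted gene Il6 averaged 0.24 ± 0.20 in IL-6 KO and 0.07 ± 0.14 in WT arrays after LPS (SD, n = 7 each), and -0.12 ± 0.04 in IL-6 KO and -0.14 ± 0.04 in WT arrays after saline (SD, n = 4 each). Il6 was higher after LPS by 0.36 in IL-6 KO mice (limma, adjusted p = 0.0193), a call lost in 8 of 34 alternative analyses. In WT mice its difference was 0.21 and was not called (limma, adjusted p = 0.457). The values of Il6 do not separate the genotypes, and whether the probe set lies in the deleted part is not given in the sources used here. On 7 arrays Gh, Prl or Ttr, genes of the pituitary and choroid plexus chosen after their values were seen, lay above 1. A split by the array number in the titles was also seen: between arrays 12 to 22 and arrays 1 to 11, 4286 genes (21.5%) differed at an adjusted p under 0.05 (limma). The labels do not say what the array number stands for.

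Avp, which encodes vasopressin, the antidiuretic peptide that also acts with CRH on the corticotrophs, had the smallest unadjusted p of the 10 genes in any comparison, that between genotypes after LPS. After LPS its values in IL-6 KO arrays had a lowest of -0.17, a median of 0.08 and a highest of 0.41, against a lowest of -0.41, a median of -0.04 and a highest of 0.08 in WT arrays. Saline arrays held -0.16, 0.12, 0.34 and -0.07 in IL-6 KO mice and 0.22, 0.11, -0.15 and 0.19 in WT mice. The groups overlapped, with 2 of 7 WT LPS arrays above 0, and 2 IL-6 KO arrays near 0.4 after LPS stood at the upper end while 1 WT array near -0.4 stood at the lower end. The mean after LPS was 0.10 ± 0.22 in IL-6 KO and -0.10 ± 0.17 in WT arrays (SD, n = 7 each). That difference of 0.21 (SE 0.09, 95% interval 0.01 to 0.40), or 1.15-fold, had an unadjusted p of 0.0405 and an adjusted p of 0.419 in limma. An unadjusted p under 0.05 was reached by 1 of 10 members here and by 11.4% of all genes (2267), so the members' share is near the background.

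The Avp difference had the same sign in both blocks of arrays, neither of which is balanced. With array block as a term it was 0.20 (limma, adjusted p = 0.963). Within arrays 1 to 11 it was 0.17 and within arrays 12 to 22 it was 0.31. Without the 7 arrays with pituitary or choroid plexus genes it was 0.15, with a limma unadjusted p of 0.256. LPS against saline was 0.05 in IL-6 KO mice (SE 0.11, interval -0.18 to 0.28) and -0.19 in WT mice (SE 0.11, interval -0.42 to 0.04). The interaction between these was 0.24 (SE 0.16, interval -0.09 to 0.57, unadjusted p = 0.140 in limma). After saline IL-6 KO and WT arrays differed by -0.03 (SE 0.13).

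Oxt encodes oxytocin, the peptide of labour and milk ejection, made by the neighbouring magnocellular neurons. Its values after LPS had a lowest of -0.09, a median of 0.05 and a highest of 0.21 in IL-6 KO arrays, against -0.44, -0.01 and 0.22 in WT arrays. After saline they were 0.00, -0.07, 0.48 and 0.23 in IL-6 KO arrays and 0.08, -0.08, -0.18 and 0.21 in WT arrays. The lowest Oxt value came from the same WT LPS array as the lowest Avp value, replicate 6, and the highest came from IL-6 KO saline replicate 3. IL-6 KO minus WT was 0.16 after LPS (SE 0.09, interval -0.03 to 0.35) and 0.15 after saline (SE 0.12, interval -0.11 to 0.40). Averaged over treatments the genotype difference was 0.15 (interval -0.01 to 0.31, limma adjusted p = 0.324), and the interaction was 0.01 (interval -0.31 to 0.33). LPS against saline gave -0.10 in IL-6 KO and -0.11 in WT mice (SE 0.11 each).

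From array to array Avp and Oxt moved together. After each group's mean was subtracted, their values over the 22 arrays had a Pearson's r of 0.67 and a Spearman's rho of 0.67, and the r was 0.60 without the 2 arrays farthest from the median. It was 0.68 with array block as a further term. Of all genes Oxt ranked 9th in likeness to Avp, and Avp ranked 12th in likeness to Oxt. The coefficient was 0.58 over the IL-6 KO LPS arrays, 0.85 over the WT LPS arrays, 0.63 over the IL-6 KO saline arrays and 0.84 over the WT saline arrays, the saline groups holding only 4 arrays each. Array number differs from array to array, dissection may differ too, and normalization is common to all, so the coefficients are descriptions.

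**Figure D2:**
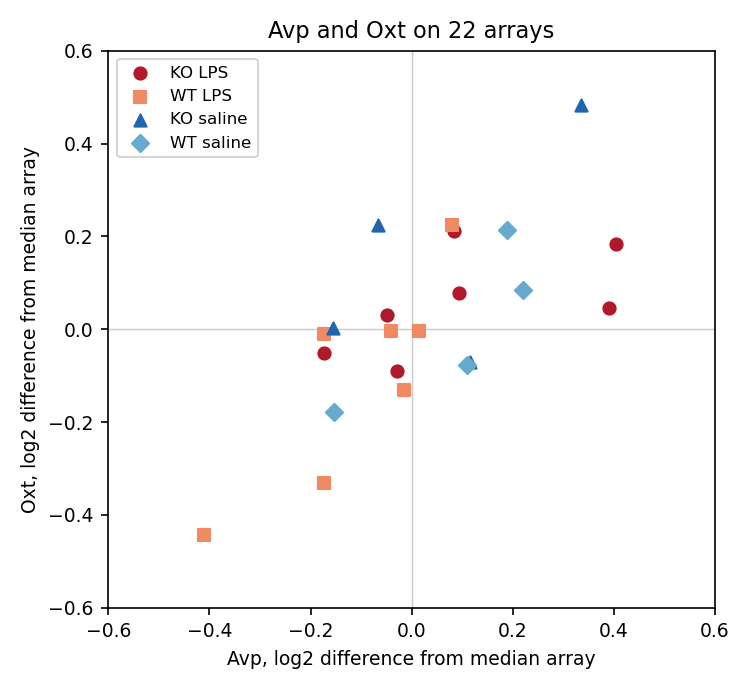
Oxt against Avp, each as a log2 difference from its own median array, with 1 point per array and a symbol per group. Arrays with low Avp tend to have low Oxt in all 4 groups, with 1 WT LPS array lowest in both genes and 1 IL-6 KO saline array highest in Oxt.

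Values of regional marker genes moved with these genes and with several other members. The mean over 11 measured of 12 listed hypothalamic markers, which include Sim1, Pmch, Hcrt and Pomc, had an r of 0.67 with Oxt and 0.40 with Avp over the same 22 arrays, and the mean over 6 general neuronal markers had an r of -0.58 with Oxt. By group, that hypothalamic mean ranged from -0.15 to 0.14 in IL-6 KO LPS, from -0.14 to 0.05 in WT LPS, from -0.08 to 0.18 in IL-6 KO saline and from 0.00 to 0.09 in WT saline arrays. Over the other members, the r with the hypothalamic mean was 0.55 for Sst, 0.52 for Crhbp, 0.44 for Ghrh, 0.44 for Kiss1 and 0.43 for Crhr1. It was 0.26 for Gnrh1, 0.07 for Crh and -0.13 for Tac2. Thalamic markers had an r of -0.48 with Oxt and -0.30 with Avp. Since the table holds no levels, no marker can be said to be present or absent, and the part of dissection in the shared variation was not tested. The 3 genes most like Avp by Pearson's r were Uqcr11 (0.78), Atp5j2 (0.71) and Bola3 (0.71). For Oxt they were Pomgnt2 (0.79), Cage1 (0.77) and Insm2 (0.75).

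Among genes that serve these peptides, 7 of 8 listed were measured, namely the vasopressin receptors Avpr1a, Avpr1b and Avpr2, the oxytocin receptor Oxtr, and the developmental transcription factors Sim1, Otp and Pou3f2. None of the 7 was called in any comparison. The smallest p belonged to Sim1, needed for the paraventricular and supraoptic neurons to form, which differed by -0.25 between LPS and saline in IL-6 KO mice (SE 0.09, limma adjusted p = 0.354). That value was -0.35 without IL-6 KO saline replicate 2, at which it passed the threshold (limma, adjusted p = 0.0392). Without the 7 arrays named above it was -0.41 (limma, adjusted p = 0.0296). Sim1 was called in this comparison in 3 of 34 alternative analyses, these included, and in the other 31 it was not. In WT mice Sim1 differed by -0.05 (interval -0.23 to 0.13).

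Crh encodes corticotropin-releasing hormone, the first signal of the stress axis. In IL-6 KO arrays after LPS its lowest, median and highest values were -0.15, 0.00 and 0.26, and in WT arrays after LPS they were -0.20, 0.01 and 0.15. Saline arrays held -0.03, 0.01, 0.14 and -0.03 in IL-6 KO and -0.15, -0.19, -0.08 and 0.15 in WT mice. Most arrays lay within 0.2 of the median array whatever the injection. LPS against saline was 0.00 in IL-6 KO mice (SE 0.07, interval -0.15 to 0.15) and 0.09 in WT mice (SE 0.07, interval -0.06 to 0.24). IL-6 KO against WT was 0.00 after LPS (interval -0.13 to 0.13) and 0.09 after saline (interval -0.08 to 0.26). A rise of Crh above 1.11-fold in IL-6 KO mice or 1.18-fold in WT mice at 3 h would lie outside these unadjusted intervals. Since levels had been removed, whether the Crh probe set was bright enough to register such a rise is not known.

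Crhr1, the CRH receptor of the corticotrophs and of many brain neurons, was the steadiest of the 10. Its 22 values ran from -0.22 to 0.18, a span of 1.32-fold. After LPS the IL-6 KO arrays averaged -0.04 ± 0.13 and the WT arrays 0.06 ± 0.08 (SD, n = 7 each), a difference of -0.10 (SE 0.05, interval -0.20 to 0.00, limma adjusted p = 0.449). Crhbp encodes a secreted protein that binds CRH and keeps it from its receptor. It ran from -0.28 to 0.27, with an LPS difference of -0.07 in IL-6 KO (SE 0.09) and -0.04 in WT mice (SE 0.09) and genotype differences of 0.01 after LPS and 0.03 after saline.

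The rest of the CRH and glucocorticoid list had 9 measured genes: Crhr2, Ucn, Ucn2, Ucn3, Pomc, Nr3c1, Nr3c2, Mc2r and Hsd11b1. After LPS in IL-6 KO mice 1 of the 9 fell, none rose and 8 did not pass, and in WT mice none of the 9 passed. The gene that fell was Nr3c1, the glucocorticoid receptor through which cortisol or corticosterone restrains Crh. It lay between -0.22 and 0.08 with a median of -0.08 in IL-6 KO LPS arrays, against 0.14 to 0.22 with a median of 0.16 in IL-6 KO saline arrays. In WT mice it lay between -0.21 and 0.04 with a median of -0.18 after LPS, against 0.00 to 0.09 with a median of 0.04 after saline. The IL-6 KO groups did not overlap and the WT groups did. Nor did IL-6 KO and WT arrays overlap after saline, where their difference was 0.13 (SE 0.06, limma adjusted p = 0.840). The share of all genes without overlap was not computed, so the lack of overlap does not set Nr3c1 apart.

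In IL-6 KO mice Nr3c1 fell by 0.24 (SE 0.05, limma adjusted p = 0.0190). Its difference in WT mice was -0.20 (SE 0.05, limma adjusted p = 0.0691), and the interaction was -0.04 (interval -0.20 to 0.12). Averaged over genotypes it fell by 0.22, or 1.16-fold (SE 0.04, limma adjusted p = 0.000612). The call in IL-6 KO mice was lost in 8 of 34 alternative analyses, including those without IL-6 KO saline replicate 1 (limma, adjusted p = 0.0982) or replicate 2 (0.0610). In WT mice the gene was called in 6 of 34, among them the fit with array block as a term (-0.20, limma adjusted p = 0.0338) and the one without WT LPS replicate 7 (limma, adjusted p = 0.00954). The call of the average was lost in 1 of 33, arrays 12 to 22 alone (-0.16, limma adjusted p = 0.532). Nr3c1 was in the list with earlier results of these data known.

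Sgk1, a kinase gene that glucocorticoids induce in many tissues, gives a scale for these values. It was higher after LPS by 1.80 in IL-6 KO mice (SE 0.08, interval 1.64 to 1.96) and by 1.68 in WT mice (SE 0.08, interval 1.52 to 1.85), with no overlap between LPS and saline arrays. Crh lay between -0.20 and 0.26 on these 22 arrays. Pomc, the precursor of ACTH and, in the arcuate nucleus, of melanocortins, differed by -0.20 after LPS in WT mice (limma unadjusted p = 0.0173, adjusted p = 0.458).

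**Figure D3:**
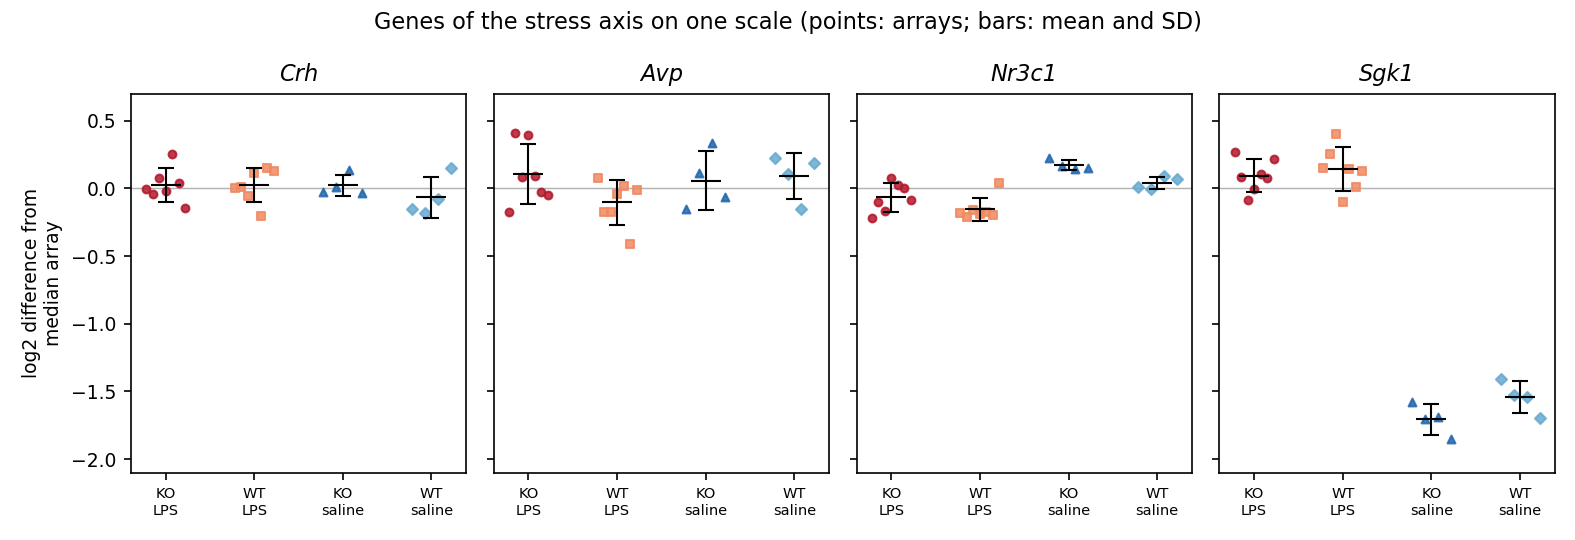
Crh, Avp, Nr3c1 and Sgk1 on 1 scale, as log2 differences from each gene's median array, with 1 point per array and bars for the mean and SD of the 4 groups. Sgk1 lies between -0.10 and 0.40 after LPS and between -1.85 and -1.41 after saline, Nr3c1 is slightly lower after LPS, and the groups of Crh and Avp overlap.

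Gnrh1, Kiss1 and Tac2 form the line that drives reproduction, and Gnrh1 encodes the peptide at its end. Its values after LPS had a lowest of -0.35, a median of -0.07 and a highest of 0.06 in IL-6 KO arrays, against -0.26, 0.07 and 0.20 in WT arrays. After saline they were -0.42, -0.01, 0.23 and 0.01 in IL-6 KO arrays and -0.07, -0.17, 0.04 and -0.24 in WT arrays. The groups overlap, and the 4 IL-6 KO saline arrays hold both the lowest and the highest of the 22 values. IL-6 KO against WT was -0.15 after LPS (SE 0.09, interval -0.33 to 0.03) and 0.06 after saline (SE 0.12). LPS against saline was -0.06 in IL-6 KO mice (SE 0.10) and 0.16 in WT mice (SE 0.10), with an interaction of -0.21 (SE 0.14, interval -0.51 to 0.09, unadjusted p = 0.158 in limma).

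Kiss1, whose product kisspeptin excites GnRH neurons, ran from -0.32 to 0.16 over all arrays, with both its lowest and its second highest value among the 4 IL-6 KO saline arrays. Its 4 group differences lay between -0.04 and 0.06 with SE of 0.06 to 0.09. Tac2 encodes neurokinin B, which sets the rhythm of the kisspeptin neurons of the arcuate nucleus. After LPS its lowest, median and highest values were -0.13, 0.05 and 0.29 in IL-6 KO and -0.13, 0.00 and 0.30 in WT arrays. After saline it had -0.23, 0.38, 0.01 and -0.14 in IL-6 KO and -0.01, -0.21, -0.25 and -0.04 in WT arrays. One saline array, IL-6 KO replicate 2, was thus the highest of all 22, and it is also the array with the highest Gh and Prl values, 3.96 and 2.90. IL-6 KO LPS replicates 3 and 5, with Gh values of 3.76 and 2.20, had Tac2 values of 0.05 and -0.03.

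Tac2 differed between LPS and saline by 0.07 in IL-6 KO mice (SE 0.09, interval -0.13 to 0.26) and by 0.15 in WT mice (SE 0.09, interval -0.04 to 0.35). The averaged difference was 0.11 (SE 0.07, limma adjusted p = 0.729). In arrays 1 to 11 alone, which hold 1 IL-6 KO saline array, it was 0.30 (limma, adjusted p = 0.0247), and in arrays 12 to 22 alone 0.05. Leaving out IL-6 KO saline replicate 2 gave 0.17 (limma, adjusted p = 0.175). Of the other 7 measured genes of the GnRH axis, among them Kiss1r, Tacr3, Pdyn, Esr1 and Pgr, none was called. Tacr3, the receptor of neurokinin B, had the smallest p, with an IL-6 KO minus WT difference of 0.10 after LPS (limma, adjusted p = 0.429).

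Ghrh encodes growth hormone-releasing hormone of the arcuate nucleus, and its values ran from -0.21 to 0.29. LPS against saline was -0.05 in IL-6 KO and 0.02 in WT mice (SE 0.09 each), and IL-6 KO against WT was -0.05 after LPS (SE 0.07) and 0.02 after saline (SE 0.10). Ghrh and Kiss1 were the second pair of members with an r above 0.5: 0.60 over 22 arrays after group means were subtracted, 0.47 without the 2 farthest arrays and 0.66 with array block as a term. Both also had positive r with the mean of 6 markers of the suprachiasmatic nucleus, the circadian clock that lies close to the third ventricle. It was 0.59 for Ghrh and 0.77 for Kiss1. With the mean of the 4 measured markers of striatum and basal forebrain Ghrh had an r of -0.60 and a weaker Spearman's rho of -0.42. The medians of the suprachiasmatic mean were -0.03 in IL-6 KO LPS, 0.00 in WT LPS, 0.01 in IL-6 KO saline and 0.01 in WT saline arrays. Its highest value, 0.22, came from IL-6 KO saline replicate 4, which also had the highest Ghrh value of that group, 0.26. The highest values elsewhere were 0.05 in IL-6 KO LPS, 0.05 in WT LPS and 0.08 in WT saline arrays. The part of this marker mean in the values of Ghrh and Kiss1 was not tested.

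Sst encodes somatostatin, which inhibits growth hormone and thyrotropin release and is also made by interneurons throughout the forebrain. Its values after LPS had a lowest of -0.33, a median of -0.02 and a highest of 0.19 in IL-6 KO arrays, against -0.46, 0.10 and 0.28 in WT arrays. Saline arrays held 0.11, -0.30, -0.04 and -0.24 in IL-6 KO and 0.14, -0.03, -0.28 and -0.03 in WT mice. One WT LPS array, replicate 7, lay far below the other 6 of its group. IL-6 KO against WT was -0.08 after LPS (SE 0.10, interval -0.29 to 0.12) and -0.07 after saline (SE 0.13), and LPS against saline was 0.06 in IL-6 KO and 0.08 in WT mice (SE 0.12 each).

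Array number was related to 2 of the 10 members, against the 21.5% of all genes given above. Sst was lower in arrays 12 to 22 than in arrays 1 to 11 by -0.23 (SE 0.08, limma adjusted p = 0.0271), and Crh was higher there by 0.14 (SE 0.05, limma adjusted p = 0.0454). The IL-6 KO LPS group has 5 of its 7 arrays among arrays 12 to 22 and the WT LPS group has 5 of its 7 among arrays 1 to 11. With array block as a term the genotype difference after LPS was 0.02 for Sst and -0.06 for Crh. None of the 10 measured genes of the growth hormone axis, which include Ghrhr, Sstr1 to Sstr5, Cort and Ghsr, was called. Sstr2, a somatostatin receptor, had the smallest p, with a genotype difference of -0.14 averaged over treatments (limma, adjusted p = 0.187). With array block as a term that difference was -0.09 (limma, adjusted p = 0.857).

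**Figure D4:**
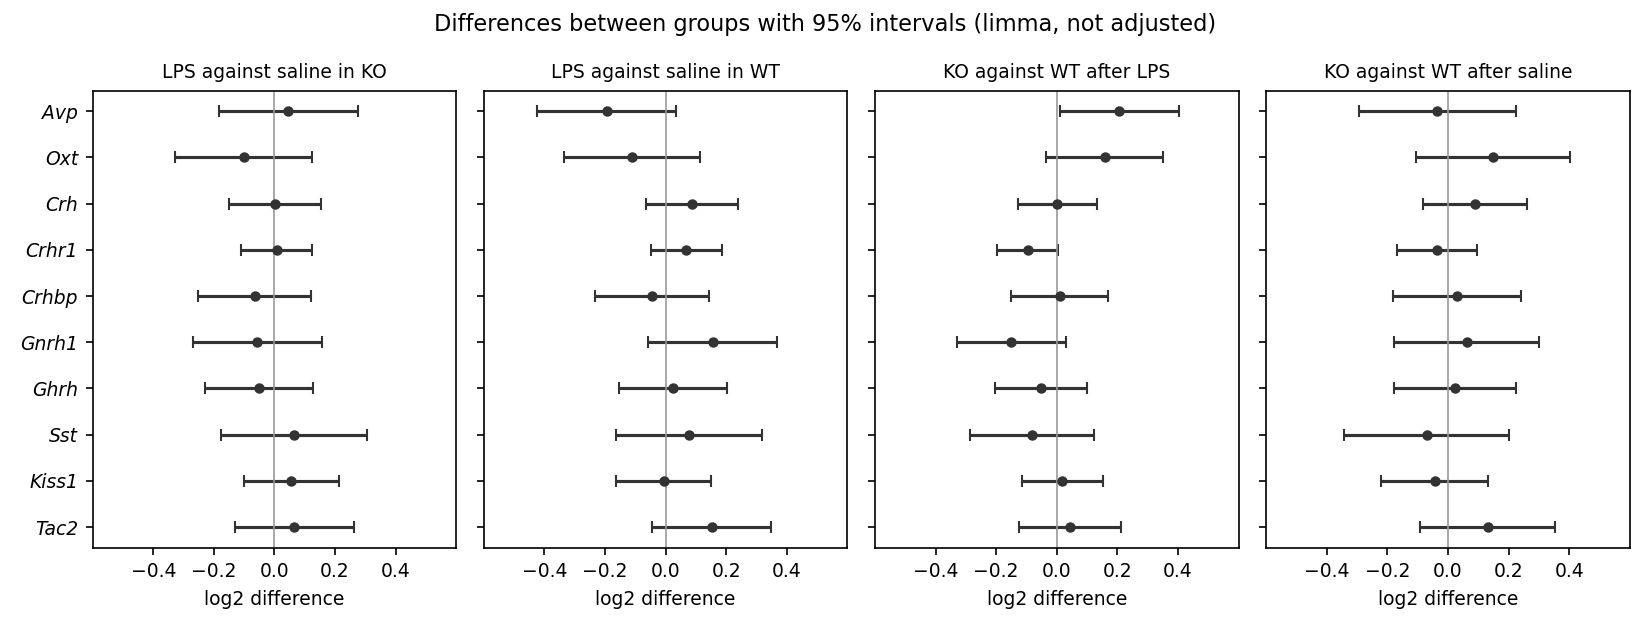
Log2 difference of each of the 10 genes in 4 comparisons, LPS against saline in IL-6 KO and in WT mice and IL-6 KO against WT after LPS and after saline; points are limma estimates and bars are 95% intervals without adjustment for the number of genes. All 40 intervals stay between -0.42 and 0.40, and 1 of them, Avp between genotypes after LPS, lies above 0.

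Side by side, the members' differences leaned in neither direction. In each of the 4 comparisons between groups 6 of the 10 lay above 0 and 4 below. LPS against saline had a median of 0.00 over the members in IL-6 KO mice, against -0.01 over all genes, and of 0.05 in WT mice, against -0.01 over all genes. The comparison of IL-6 KO with WT had a member median of 0.01 after LPS and 0.03 after saline, against 0.00 over all genes in both. The 2 comparisons with saline in a genotype and the 2 between genotypes share arrays, so their values are not independent of each other.

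Scatter within groups was above that of the median gene for 9 of the 10. Within groups the SD was 0.205 for Sst, 0.195 for Avp and 0.191 for Oxt, at the 97.4, 96.7 and 96.3 percentiles of all genes. It was 0.179 for Gnrh1, 0.164 for Tac2, 0.156 for Crhbp, 0.148 for Ghrh, 0.128 for Kiss1 and 0.124 for Crh, against 0.102 for the median gene. Only Crhr1, at 0.0893, lay below that median. From the lowest to the highest array the span ran from 1.32-fold for Crhr1 to 1.90-fold for Oxt. The precision of each comparison follows from this scatter, and array data give no read depth to set beside it.

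**Figure D5:**
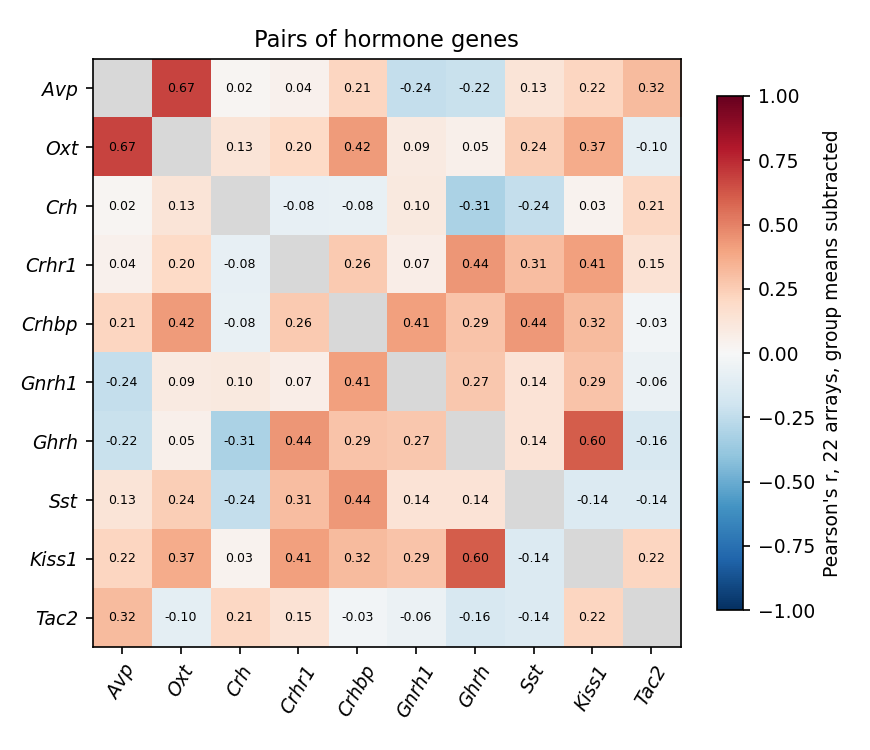
Pearson's r for the 45 pairs of the 10 genes over 22 arrays, after the mean of each of the 4 groups was subtracted, on a colour scale from -1 to 1. Avp with Oxt (0.67) and Ghrh with Kiss1 (0.60) are the 2 pairs above 0.5, and the other pairs lie between -0.31 and 0.44.

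Over the 45 pairs of members the median r was 0.14, against 0.0066 over the pairs of a member with any gene, and the lowest was -0.31, for Ghrh with Crh. Crh, the stress peptide, had an r of 0.02 with Avp and 0.13 with Oxt. Its 3 most similar genes were Zfp667 (0.87), Nup205 (0.85) and Tbc1d23 (0.84). For Sst they were Grik3 (0.88), Blcap (0.87) and Sgsm1 (0.86), and Sst had an r of 0.55 with the hypothalamic marker mean and -0.49 with the thalamic one. The genes most similar to Kiss1 were Atoh1 (0.88), Clec4d (0.87) and Ly6m (0.86), and those most similar to Ghrh were Spon2 (0.87), 5031434C07Rik (0.87) and Dmkn (0.86). Crhbp was nearest to Mir363, Rnase10 and Gm35586 (0.76 each), and Crhr1 to Olfr1193 (0.80), Kcnd1 (0.79) and Efs (0.78). Gnrh1 came closest to Galnt12 (0.77), Pcdhb4 (0.74) and Firre (0.72), while Tac2 came closest to Cyp2c39 (0.72), Psg-ps1 (0.67) and Olfr199 (0.65). These coefficients are the highest among all genes over 22 arrays with a common normalization. Array number differs between the arrays and dissection may differ too, so the coefficients are given as descriptions.

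The enzymes and granule proteins that process all of these peptides did not pass the test either. Of the 10 listed, 9 were measured, among them the convertase Pcsk1, the carboxypeptidase Cpe, the amidating enzyme Pam and the granins Chga, Chgb and Scg2, and none was called. Chgb had the smallest p, with an IL-6 KO minus WT difference of 0.14 after LPS (SE 0.05, limma adjusted p = 0.344). Of the 5 genes of the TRH and dopamine neurons, Trh, Th, Ddc, Slc18a2 and Slc6a3, none was called. Ddc, which makes dopamine from its precursor, had the smallest p, with a genotype difference of 0.28 averaged over treatments (SE 0.08, limma adjusted p = 0.171) and of 0.21 with array block as a term. Its IL-6 KO and WT saline arrays did not overlap, and the share of all genes without such overlap was not computed.

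None of the measured marker genes of pituitary, choroid plexus, thalamus, cortex, striatum, hypothalamus, suprachiasmatic nucleus or general neurons was called in any comparison. The pituitary marker mean ranged from -0.09 to 0.97 in IL-6 KO LPS, from -0.18 to 0.12 in WT LPS, from -0.02 to 1.01 in IL-6 KO saline and from -0.01 to 0.04 in WT saline arrays, the high values lying in IL-6 KO mice. Its r with the members ranged from -0.13 for Crhbp to 0.36 for Tac2. The choroid plexus mean ranged from -0.15 to 0.29 in IL-6 KO LPS, from -0.11 to 0.41 in WT LPS, from -0.16 to 0.19 in IL-6 KO saline and from -0.07 to 0.95 in WT saline arrays.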

How the data were processed

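The authors' deposited table holds log2 values of 28815 probe sets from 22 Affymetrix arrays. Per the submitters' processing notes, which give no version, they were made with RMA (background correction, quantile normalization, summary of probes). The genome build was not given in the sources used here. Over the arrays each probe set had a median of 0 within 7.02e-07, so levels had been removed, and the base of the logarithm, not stated, was taken as 2. Array medians lay between -0.01 and 0.03, 0 pairs of arrays were identical, and the highest correlation between 2 arrays was 0.601. The number of arrays limits the precision.

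Probe sets were named from the platform annotation. Of 28815, 21780 had 1 symbol (21689 matched a RefSeq gene ID on GRCm38.p6), 1605 had several and 5430 had none. Only the first kind was used, averaged per gene (998 genes had several probe sets), which left 19935 genes.

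Arrays were grouped by genotype and treatment in their titles, with replicates numbered in deposition order. Values were fitted with limma 3.58.1 in R 4.3.3, with 1 mean per group, default empirical Bayes moderation, 7 two-sided contrasts and p-values adjusted over all genes by Benjamini-Hochberg. The script was tested on simulated data. No filter on dim genes was possible. Correlations were computed after group means were subtracted. The 10 members and the gene lists were chosen with earlier results of these data known. By a fixed rule the text names all members, up to 4 called genes of each list or the 1 with the smallest p, the 3 genes most like each member, and Cxcl10, Lcn2, Sgk1 and Il6; Pomc, Gh, Prl and Ttr were named after their values were seen. Of the marker lists, only those whose values are printed have genes named. Alternatives were quantile normalization, median centring, array block as a term or alone, array weights, robust moderation, another probe set rule, the upper part of genes by SD, only the 2 groups compared, and leaving out single arrays, 4 arrays or, added after the values were seen, 7 arrays with pituitary or choroid plexus genes.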

Additional observations from a re-analysis of the deposited data

Results flagged for a closer look

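In 2 of 40 combinations of member and group, 1 array lay apart from the rest of its group by Dixon's criterion, which chance meets in about 1 of 20 groups. For Ghrh, IL-6 KO saline replicate 4 was highest at 0.2649, and the other 3 arrays of that group lay at or just below 0. For Sst, WT LPS replicate 7 was lowest at -0.4634, and the nearest of the other 6 arrays lay at 0.02. No member passed the test of a different LPS effect between genotypes (limma's interaction term).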

How the results depend on the processing

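Of 2343 alternative fits of the members' 70 results, 1 was called, Tac2 for LPS averaged over genotypes in arrays 1 to 11 alone (0.30), and 180 changed the sign of a difference that was not called. The sign held in every alternative for 13 of the 70, and 28 of the 70 had an unadjusted p under 0.05 in at least 1 of the alternatives. For Avp between genotypes after LPS, the alternatives gave 0.15 to 0.31 and limma adjusted p of 0.117 to 0.9999, with an unadjusted p under 0.05 in 23 of 34. Counts over all genes moved as follows, and the cause was not tested. Arrays 1 to 11 hold 1 IL-6 KO saline array and arrays 12 to 22 hold 1 WT saline array, which is assumed to vary like the other groups. LPS in IL-6 KO mice gave 145 genes in arrays 1 to 11 alone and 166 in arrays 12 to 22 alone, against 267. LPS in WT mice gave 45 in arrays 12 to 22 alone, against 359, and LPS averaged gave 209 there, against 550. IL-6 KO against WT after LPS, 8 genes, gave 17 with quantile normalization, 2 with array block as a term, 0 in each block alone, 614 with array weights, 1 without 4 arrays and 0 without 7 arrays with pituitary or choroid plexus genes, 16 in the upper part of genes by SD and 1 with only the compared groups. Leaving out 1 array gave 2 to 47, the highest without IL-6 KO LPS replicate 1 and 5 or fewer without IL-6 KO LPS replicate 3, 4, 5 or 6 or WT LPS replicate 3 or 4. After saline, 1 gene, the count was 0 with quantile normalization, in each array block, without the 7 arrays and with only the compared groups, 3 in the upper part by SD, and 0 to 2 leaving out 1 array (0 without WT saline replicate 1 or 4 or IL-6 KO saline replicate 1, 2 without WT LPS replicate 4 or 7). The genotype effect averaged, 5 genes, gave 3 with the array term, 1 in each block, 2054 with weights, 1 without the 4 or the 7 arrays, and 4 to 173 leaving out 1 array, the highest without IL-6 KO LPS replicate 1, with 9 without IL-6 KO LPS replicate 2, 14 without IL-6 KO saline replicate 1 and 13 without WT saline replicate 4. Quantile normalization of the centred values shrank large differences, to 1.12 for Sgk1 in IL-6 KO mice. No paired analysis was possible because the replicate numbers only follow the order of deposition and the array numbers are unique. A null result in the members is bounded only by the intervals given, which belong to the main fit, at 1 time after LPS. Some alternative estimates lay outside these intervals. Oxt differed by -0.50 after LPS in WT mice in arrays 12 to 22 alone. Tac2 differed by 0.47 after LPS in IL-6 KO mice in arrays 1 to 11 alone. Each of these fits had 1 saline array of that genotype. For a probe set too dim to register a change the intervals give no bound, and levels were not available.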
